A study of Mus musculus with 9 samples.

Results

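The Rab proteins are a family of small GTPases that direct membrane traffic, and the genes described here are those whose symbol is Rab followed by a number and at most a letter and a further digit. This rule leaves out interactors and pseudogenes and finds 59 of the 48526 genes in the read count table. The 9 libraries were made from the RNA of BV-2 cells, a microglial line of the mouse that grows without limit. HP cells received a high first dose of lipopolysaccharide (LPS), ULP cells received an ultra-low first dose and unprimed (UP) cells received none, with 3 libraries per group numbered 4 to 6, and the cells of all groups were then stimulated with 100 ng/ml LPS. The groups follow the sample titles, because a separate dose field of the labels gives 1 fg/ml for HP and 100 ng/ml for ULP cells, the reverse of the titles and of the study's methods. A cell line lacks the tissue around a microglial cell, cells without any LPS were not analysed here, and no source states whether each library had its own culture, so that the p-values speak for the scatter among these 9 libraries, which could be of technical origin.

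A Rab protein works as a molecular switch. Exchange factors load it with GTP, in which state it holds effectors such as tethers and motor adaptors on a membrane, and GTPase-activating proteins return it to the GDP state. Each Rab marks its own compartment, so that in macrophages and microglia early endosomes and new phagosomes carry Rab5, recycling endosomes carry Rab11 and late endosomes and lysosomes carry Rab7, while other Rabs serve the path from the endoplasmic reticulum through the Golgi apparatus to the cell surface. Several of them are known from macrophages to handle the LPS receptor TLR4, with Rab10 bringing it to the cell surface, Rab11a bringing it to phagosomes and Rab7b promoting its degradation.

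The libraries held between 24.2 and 27.8 mio counts. Libraries ULP 4 and HP 6 stood apart from the other primed libraries: on the first principal component of all genes tested, which held 79.1% of the variance, they lay at −39.2 and −20.4, beside the UP libraries (−73.0 to −46.4) and away from the other 4 primed libraries (44 to 75.5). The summed level of the nuclear RNAs Malat1 and Neat1 moved with this axis. It was 115.5, 52.7 and 6.55 RPKM (reads per kilobase of gene per 1 mio counts) in the HP libraries from highest to lowest, 38.0, 34.0 and 5.57 RPKM in the ULP libraries and 2.503 to 3.65 RPKM in the UP libraries, with HP 6 and ULP 4 the lowest of their groups. The part of this nuclear RNA in the results below was not tested, and values without ULP 4 and HP 6 are given beside those with all libraries. These libraries were set apart by their own expression, in which they resembled UP cells, so that leaving them out favours larger differences from UP cells and smaller p-values. Adjusted p-values from fits without them are thus descriptive and no valid test of priming. The words "rose" and "fell" below hold for the other 7 libraries. The microglia and macrophage markers Tyrobp, Cd68 and Csf1r were abundant in all libraries, Cx3cr1 and P2ry12 had at most 2 and 4 counts in any library, and the summed markers of astrocytes, neurons, oligodendrocytes or endothelium came to at most 1.43 RPKM in any library, with 1 of 4 markers at 0 everywhere in each of these lists.

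Of the 59 Rab genes, 44 had enough counts to be tested, 6 had counts but too few and 9 had none in any library. The tested genes comprised 15 of 16 endosomal, 16 of 23 secretory and 8 of 11 lysosomal Rabs and 5 of 9 others. The 9 genes without counts were Rab3b, Rab3c and Rab27b of regulated secretion, Rab9b and Rab38 of late endosomes and lysosome-related organelles, and Rab36, Rab39b, Rab40b and Rab42. A count of 0 allows up to 3 counts per library, or 0.124 reads per mio in the smallest library, and this limit covers counting error only. Rab27a, which docks lysosome-related organelles and exosomes at the cell surface, had between 0 and 4 counts per library, and Rab25, Rab26, Rab30, Rab33a and Rab34 had at most 10.

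The most abundant Rab was Rab1b, which serves traffic from the endoplasmic reticulum to the Golgi apparatus, with a mean of 186 RPKM over the 9 libraries. It was followed by Rab7 with 92.9 RPKM, Rab5c with 85.7 RPKM, Rab1a with 57.5 RPKM, Rab32 with 45.9 RPKM, Rab35 with 43.0 RPKM, Rab31 with 42.8 RPKM and Rab10 with 33.9 RPKM. These 8 thus include the early endosomal Rab5c, the recycling Rab35, the late endosomal Rab7 and the Golgi-to-surface Rab10. Of the tested Rabs, 22 reached a mean of 10 RPKM and 36 a mean of 1 RPKM. Between 9.30 and 27.8 RPKM were Rab2a, Rab8a, Rab24, Rab11a, Rab20, Rab5b, Rab18, Rab21, Rab8b, Rab6a, Rab5a, Rab29, Rab12, Rab11b, Rab14 and Rab40c. Rab9 (8.99 RPKM) and Rab22a (8.61 RPKM) followed, then Rab7b, Rab17, Rab28, Rab4a, Rab15, Rab3d, Rab33b, Rab13, Rab19 and Rab23 down to 1.04 RPKM. Rab3a, Rab44, Rab6b, Rab39, Rab4b, Rab2b, Rab37 and Rab43 lay under 1 RPKM, with Rab43 the lowest of those tested at 0.118 RPKM. The counts of Rab4b are uncertain, since 78.4% of the 51-base windows of its transcripts also occur in another gene. Of the 44 tested Rabs, 21 share part of their span with another annotated gene, such as Rab5a with Pp2d1, Rab10 with Rab10os and Rab37 with Cd300lf. These spans include introns and were compared on either strand. Whether any counted reads were shared was not tested, and it is not known whether counting used strand.

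**Figure D1:**
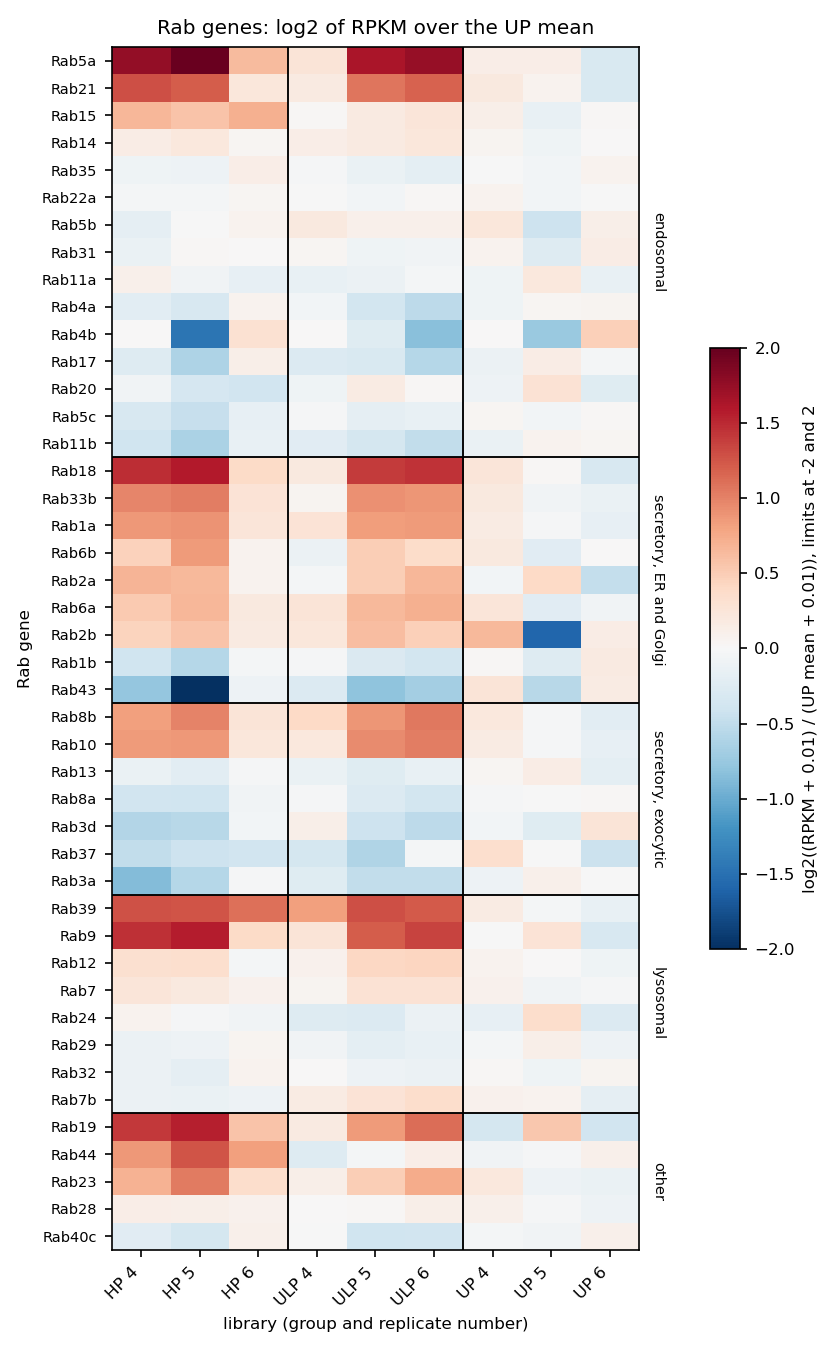
Level of each tested Rab gene in each library (columns, HP, ULP and UP), as log2 of RPKM over the mean of the UP libraries, with 0.01 RPKM added to both and colours limited at −2 and 2. Rows are grouped by role and ordered within a role by the HP against UP log2 fold change. Rab5a, Rab21, Rab18, Rab33b, Rab1a, Rab8b, Rab10 and Rab9 are redder in HP 4, HP 5, ULP 5 and ULP 6 than in HP 6 and ULP 4, whereas Rab15 and Rab44 are red in all 3 HP libraries.

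To ask which Rab genes differed between primed and unprimed cells, a quasi-likelihood model of edgeR was fitted to the counts of all genes. At an adjusted p under 0.05, 0 of 44 Rab genes were called in HP against UP cells, where 0.524% of all genes tested were called, 0 in ULP against UP cells (0% of all genes) and 0 in HP against ULP cells (0.17% of all genes). The smallest adjusted p of a Rab gene by edgeR was 0.0606, 0.169 and 0.0796 in the same comparisons. At an unadjusted p under 0.05, 18 Rabs in HP against UP cells (13 positive, 5 negative) stood beside 40.9% of all genes, 10 in ULP against UP cells (9 positive, 1 negative) beside 27.1% and 3 in HP against ULP cells beside 3.94%. With 18 of 44 and 10 of 44, these shares are near those of all genes. The balance of directions in HP against UP cells turned with the scaling, with 4 positive and 11 negative under the GC content offset and 7 positive and 11 negative under a gene length offset. DESeq2 called 12 Rabs (10 higher, 2 lower), 2 (both higher) and 1 (higher) at an adjusted p under 0.05, where 24.8% (17% higher, 7.79% lower), 7.13% (7.04% higher) and 0.728% of all genes were called, and limma on log2(RPKM + 0.1) called 0 in each comparison. In HP against UP cells edgeR called 3 Rabs without a filter on low counts, beside 8.55% of all genes, and 3 with only the libraries compared, beside 10.6%.

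Without ULP 4 and HP 6, edgeR called 24 Rab genes in HP against UP cells, of which 15 rose and 9 fell, and 20 in ULP against UP cells, of which 13 rose and 7 fell. Of all genes, 48.5% were called in HP cells (28.1% higher, 20.4% lower) and 38.2% in ULP cells (23.6% higher, 14.6% lower). Without these libraries, 0 Rab genes were called in HP against ULP cells, where 0.0536% of all genes were called by edgeR. Leaving out ULP 4 alone gave 13 Rab calls in HP and 9 in ULP cells (25.9% and 19.2% of all genes), and leaving out HP 6 alone gave 19 and 0 (38.3% and 0%). Leaving out any other single library gave 0 calls in each comparison.

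**Figure D2:**
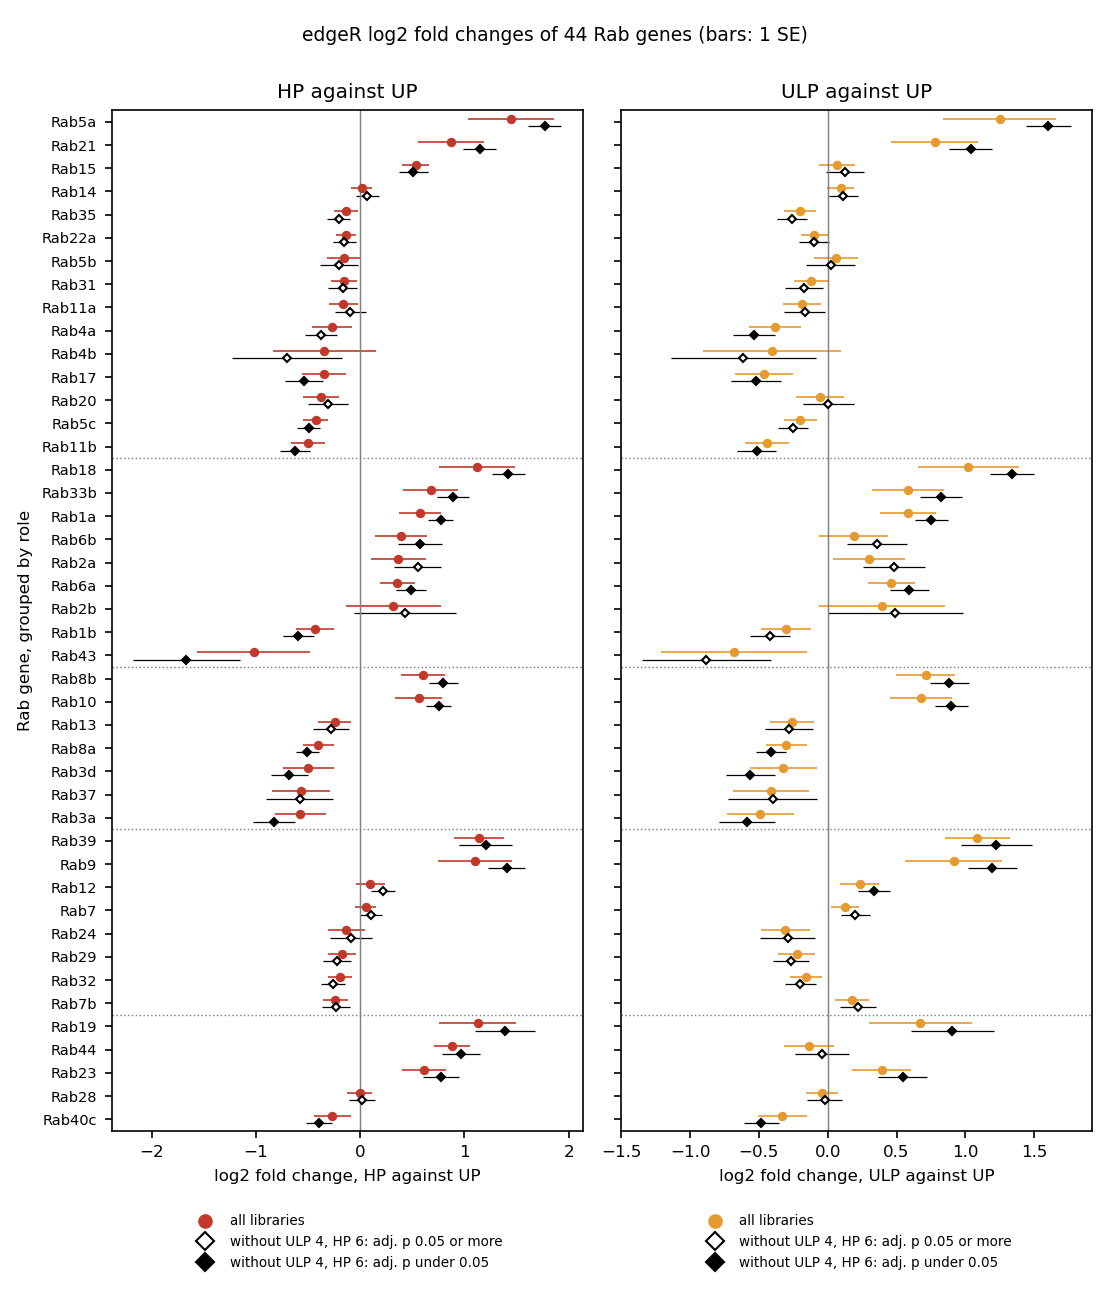
edgeR log2 fold changes of the 44 tested Rab genes (rows, grouped by role as in the heat map) in HP against UP cells (left) and ULP against UP cells (right), with bars of 1 SE. Coloured circles use all 9 libraries, diamonds leave out ULP 4 and HP 6 and are filled where the adjusted p is under 0.05. Rab5a has the largest value in both panels (1.45 and 1.25 with all libraries), and the diamonds mostly lie farther from 0 with shorter bars.

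The members of several Rab subfamilies lay on opposite sides of 0. The pairs were formed after the values were seen, and their ratios are given as a description. Here and below, the share of all genes that separated all primed from all UP libraries is not given. Such separations therefore describe single genes and are not read as a result about the Rabs. For Rab5, which controls fusion of early endosomes and the first steps of phagosome maturation, Rab5a had 22.3, 26.0 and 10.2 RPKM in HP libraries 4, 5 and 6, 7.84, 20.4 and 21.9 RPKM in ULP libraries 4, 5 and 6, and 7.17, 7.21 and 5.31 RPKM in UP libraries 4, 5 and 6. All 6 primed libraries lay above the UP libraries, with ULP 4 closest to them. Rab5c, the most abundant Rab5 gene, had 75.8, 68.5 and 84.4 RPKM in HP, 92.4, 83.4 and 84.6 RPKM in ULP and 96.5, 90.4 and 95.6 RPKM in UP libraries, so that by RPKM HP lay below UP without overlap and ULP 4 lay within the UP range. All primed libraries lay below UP for Rab5c with library scaling by TMM in place of RPKM. The edgeR log2 fold changes in HP against UP cells were 1.45 ± 0.41 (SE) for Rab5a (adjusted p = 0.0608) and −0.43 ± 0.12 for Rab5c (adjusted p = 0.0606), and in ULP against UP cells 1.25 ± 0.41 and −0.20 ± 0.12 (adjusted p = 0.169 and 0.271). Without ULP 4 and HP 6, Rab5a rose in HP and in ULP cells by edgeR (1.77, adjusted p = 7.63e-05, and 1.60, adjusted p = 0.000191), while Rab5c fell in HP cells (−0.50, adjusted p = 0.00652) and missed the threshold in ULP cells (−0.25, adjusted p = 0.0989). Rab5b, at a mean of 21.6 RPKM, had values near 0 in both comparisons (−0.16 ± 0.16 and 0.06 ± 0.16). The ratio of Rab5a to Rab5c was 0.121 to 0.379 in HP, 0.0848 to 0.259 in ULP and 0.0556 to 0.0798 in UP libraries.

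Rab1a and Rab1b, which both act between the endoplasmic reticulum and the Golgi apparatus, showed the same contrast. Rab1a had 75.0, 75.9 and 48.2 RPKM in HP, 49.3, 72.9 and 73.5 RPKM in ULP and 45.9, 40.2 and 36.7 RPKM in UP libraries, again with HP 6 and ULP 4 just above the UP range. Rab1b had 159, 142 and 205 RPKM in HP, 206, 172 and 162 RPKM in ULP and 214, 177 and 239 RPKM in UP libraries, and its groups overlapped. The ratio of Rab1a to Rab1b was 0.235 to 0.537 in HP, 0.240 to 0.453 in ULP and 0.153 to 0.227 in UP libraries. The log2 fold changes of Rab1a by edgeR were 0.58 ± 0.20 in HP and 0.58 ± 0.20 in ULP against UP cells (adjusted p = 0.0742 and 0.169), those of Rab1b were −0.44 ± 0.18 and −0.30 ± 0.18 (adjusted p = 0.106 and 0.278). Without ULP 4 and HP 6, Rab1a rose in both comparisons and Rab1b fell in HP cells (−0.59, edgeR adjusted p = 0.0103).

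For Rab8, which carries cargo from the Golgi apparatus and recycling endosomes to the plasma membrane, Rab8b had 22.9, 25.8 and 15.5 RPKM in HP, 17.2, 23.9 and 27.0 RPKM in ULP and 14.97, 12.8 and 11.2 RPKM in UP libraries. Rab8a, which is known to bind PI3Kγ in macrophages, had 22.6, 22.4 and 28.1 RPKM in HP, 29.0, 24.4 and 22.8 RPKM in ULP and 29.1, 29.5 and 30.1 RPKM in UP libraries. The primed libraries thus lay above UP for Rab8b and below it for Rab8a without overlap, and the ratio of Rab8b to Rab8a was 0.554 to 1.15 in HP, 0.591 to 1.18 in ULP and 0.372 to 0.514 in UP libraries. With library scaling by TMM in place of RPKM, Rab8a and Rab8b no longer separated all primed from all UP libraries. The same held for Rab1a and for Rab10, described below. The log2 fold changes in HP against UP cells by edgeR were 0.60 ± 0.21 for Rab8b (adjusted p = 0.0765) and −0.40 ± 0.15 for Rab8a (adjusted p = 0.0804). Without ULP 4 and HP 6, Rab8b rose in HP and in ULP cells (0.80 and 0.88, edgeR adjusted p = 0.00228 and 0.00198) and Rab8a fell in both (−0.51 and −0.41, edgeR adjusted p = 0.00597 and 0.0189). In 3 of 12 such ratios, those of Rab5a to Rab5c, Rab1a to Rab1b and Rab8b to Rab8a, each primed value exceeded each UP value, a direction that follows from which member was put on top. The Rab2, Rab3, Rab4 and Rab6 pairs had fold changes of the same sign in both members.

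The promoters of these 3 pairs are shown because their members share a function and differed in direction in the main fit. With the GC content offset, Rab8b and Rab8a were both negative in HP against UP cells (−0.64 and −0.46). RefSeq promoter windows of the mouse build GRCm38.p6 were matched for 38 of the 44 tested Rab genes, and the 250 bases before the annotated start are printed 5′ to 3′ on the gene's strand. Capitals mark matches, on either strand, to the GC box core GGGCGG, the CCAAT box CCAAT, the E-box CACGTG, the TATA box TATAAA, the cAMP response element TGACGTCA or the core of the interferon-stimulated response element, and no marked matches overlap. The windows lie at chr17:53478984-53479233 (plus strand, Rab5a), chr11:100738216-100738465 (minus, Rab5c), chr11:20201162-20201411 (plus, Rab1a), chr19:5106997-5107246 (minus, Rab1b), chr9:66919706-66919955 (minus, Rab8b) and chr8:72160950-72161199 (plus, Rab8a).
Rab5a: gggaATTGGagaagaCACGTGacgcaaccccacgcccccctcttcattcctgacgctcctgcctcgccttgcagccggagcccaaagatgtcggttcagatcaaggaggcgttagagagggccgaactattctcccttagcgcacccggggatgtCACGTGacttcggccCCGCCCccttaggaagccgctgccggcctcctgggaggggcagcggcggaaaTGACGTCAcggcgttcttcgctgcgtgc
Rab5c: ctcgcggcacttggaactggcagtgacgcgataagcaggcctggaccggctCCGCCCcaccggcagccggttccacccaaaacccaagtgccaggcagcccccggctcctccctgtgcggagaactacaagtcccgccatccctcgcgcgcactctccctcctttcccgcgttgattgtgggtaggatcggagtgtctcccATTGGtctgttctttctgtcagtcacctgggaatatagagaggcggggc
Rab1a: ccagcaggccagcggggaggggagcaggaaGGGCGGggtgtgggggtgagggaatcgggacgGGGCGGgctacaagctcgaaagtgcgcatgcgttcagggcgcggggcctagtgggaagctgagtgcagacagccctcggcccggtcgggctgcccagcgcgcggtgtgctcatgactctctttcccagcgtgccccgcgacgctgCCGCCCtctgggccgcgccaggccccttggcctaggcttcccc
Rab1b: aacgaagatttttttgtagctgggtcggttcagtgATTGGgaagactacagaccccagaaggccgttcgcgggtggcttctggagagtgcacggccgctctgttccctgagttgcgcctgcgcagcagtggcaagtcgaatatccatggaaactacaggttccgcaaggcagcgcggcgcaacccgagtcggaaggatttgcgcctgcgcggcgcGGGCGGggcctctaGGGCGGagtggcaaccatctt
Rab8b: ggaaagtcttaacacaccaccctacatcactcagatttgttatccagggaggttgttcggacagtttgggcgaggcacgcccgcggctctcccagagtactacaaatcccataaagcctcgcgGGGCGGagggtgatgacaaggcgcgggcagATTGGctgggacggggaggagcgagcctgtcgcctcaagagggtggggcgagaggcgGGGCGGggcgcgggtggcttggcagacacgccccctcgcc
Rab8a: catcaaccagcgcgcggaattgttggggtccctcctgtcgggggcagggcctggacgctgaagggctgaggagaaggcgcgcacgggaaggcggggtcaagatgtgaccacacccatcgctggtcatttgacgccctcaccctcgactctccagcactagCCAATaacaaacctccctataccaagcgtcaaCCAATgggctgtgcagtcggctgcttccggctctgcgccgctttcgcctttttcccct
The 6 windows had a GC content of 60.8% to 72.4%, against a median of 62.2% in the Rab windows and 52.4% in all 32851 windows. None held a TATA box or the interferon response core, which occur in 12.4% and 2.98% of all windows. A GC box core was found in all but Rab8a, in 68.8% of the Rab windows and in 32.7% of all windows, and a CCAAT box was found in all but Rab1a, in 33.8% of all windows. Rab5a was the only one of the 6 with E-boxes, of which it held 2, and with a cAMP response element. The E-box occurred in the windows of 4 Rab genes (Rab5a, Rab20, Rab21 and Rab23) and in 6.02% of all windows, and the cAMP response element in Rab5a alone among the Rab genes and in 1.55% of all windows. A match is a string of letters and not a measured site.

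**Figure D3:**
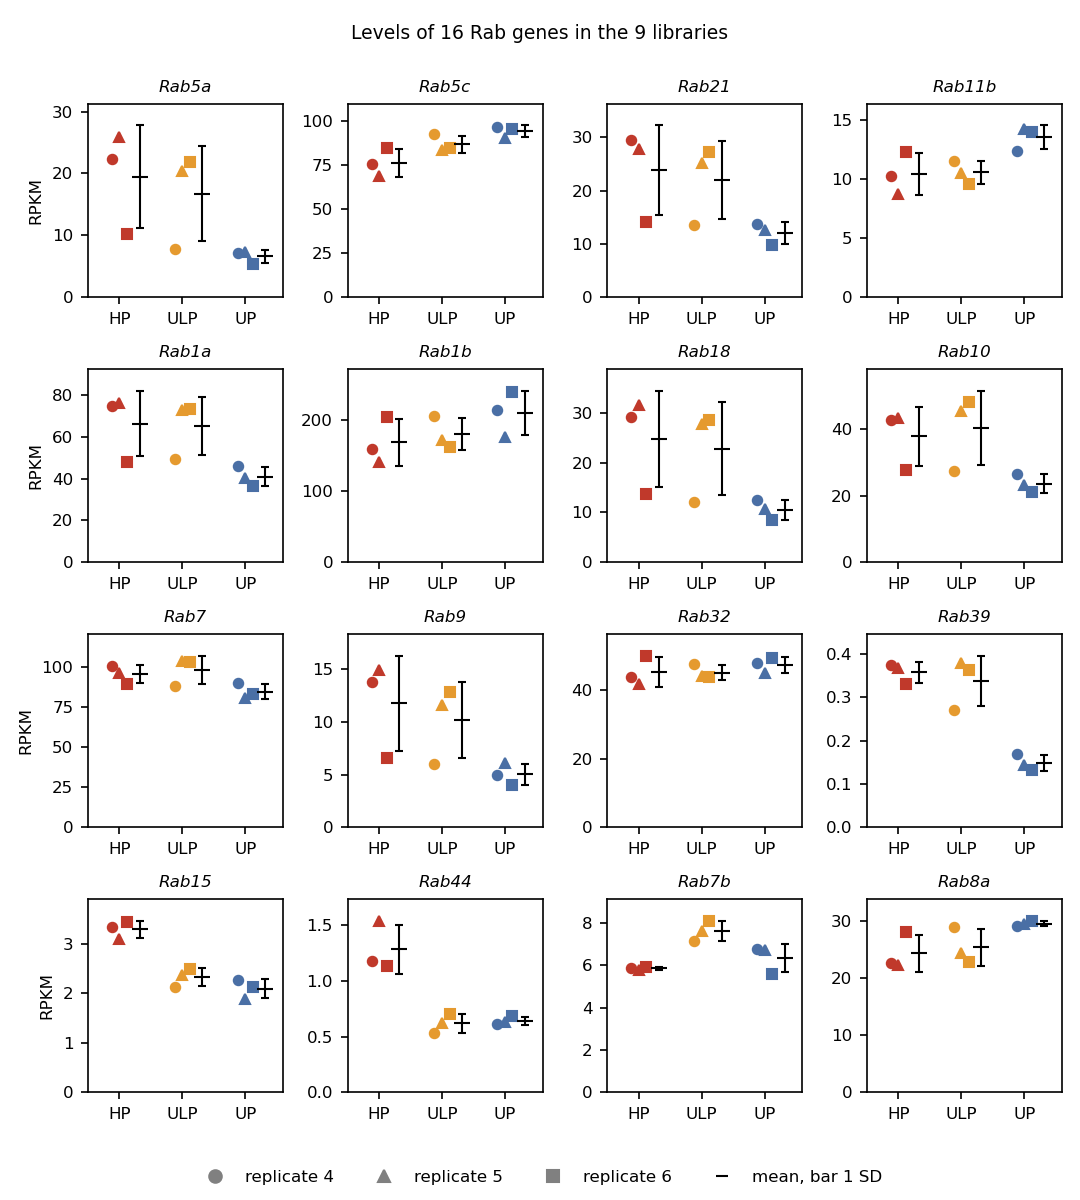
RPKM (y axis, from 0) of 16 Rab genes in the HP, ULP and UP libraries, with a symbol for each replicate number and, beside each group, its mean with a bar of 1 SD (n = 3). Rab5a, Rab21, Rab1a, Rab18, Rab10 and Rab9 have HP 6 and ULP 4 as the primed libraries nearest UP, Rab5a, Rab1a, Rab10 and Rab39 lie above UP in all 6 primed libraries, and Rab15 and Rab44 lie above ULP and UP in all 3 HP libraries.

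Among the 15 tested endosomal Rabs, 4 had a positive log2 fold change in HP against UP cells and 11 a negative one (median −0.16, against 0.01 for all genes tested), and 5 were positive in ULP against UP cells (median −0.12, against −0.01). Rab5a stood at the top in both. Rab21, which takes up integrins and acts on phagosomes, had 29.4, 27.9 and 14.1 RPKM in HP, 25.2 and 27.2 RPKM in ULP libraries 5 and 6 but 13.6 RPKM in ULP 4, and 13.7, 12.6 and 9.73 RPKM in UP libraries. Its edgeR log2 fold change was 0.87 ± 0.32 in HP and 0.78 ± 0.32 in ULP against UP cells (adjusted p = 0.0801 and 0.176), and without ULP 4 and HP 6 it rose in both (1.15 and 1.04, adjusted p = 0.000561 and 0.00138). The recycling Rab11b had 10.3, 8.71 and 12.3 RPKM in HP, 11.5, 10.6 and 9.60 RPKM in ULP and 12.4, 14.3 and 13.98 RPKM in UP libraries. All primed libraries lay below UP, with edgeR log2 fold changes of −0.50 ± 0.16 and −0.44 ± 0.16 (adjusted p = 0.0657 and 0.169), and Rab11b fell in both comparisons without ULP 4 and HP 6. Its paralog Rab11a, with 27.0, 23.9 and 22.5 RPKM in HP, 22.8, 23.1 and 24.6 RPKM in ULP and 23.6, 29.1 and 22.7 RPKM in UP libraries, overlapped between the groups by RPKM (−0.16 ± 0.14 and −0.19 ± 0.14). With library scaling by TMM, all ULP libraries lay below UP for Rab11a. The abundant Rab35, which acts in recycling and phagosome traffic, had 41.8, 41.2 and 48.4 RPKM in HP, 43.7, 40.2 and 38.6 RPKM in ULP and 44.1, 42.6 and 46.3 RPKM in UP libraries. Rab31, which acts between the Golgi apparatus and endosomes, had 39.6, 44.1 and 43.6 RPKM in HP, 44.8, 40.9 and 41.3 RPKM in ULP and 45.7, 36.6 and 48.3 RPKM in UP libraries. Neither separated the groups. Rab17, known from transcytosis in epithelia, had 5.73, 4.46 and 7.42 RPKM in HP, 5.66, 5.52 and 4.63 RPKM in ULP and 6.29, 7.59 and 6.68 RPKM in UP libraries. All ULP libraries lay below UP, and the log2 fold changes of Rab17 were −0.35 ± 0.21 and −0.46 ± 0.21 (edgeR adjusted p = 0.226 and 0.187). It fell in both comparisons without ULP 4 and HP 6 (−0.54 and −0.52, adjusted p = 0.0343 and 0.0478). Rab4a fell in ULP cells in that fit (−0.54, edgeR adjusted p = 0.0241), and with all libraries Rab4a, Rab4b, Rab14, Rab20 and Rab22a had no value with an unadjusted p under 0.05.

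Of the 9 Rabs of the endoplasmic reticulum and Golgi apparatus, 7 had a positive log2 fold change in HP and in ULP against UP cells (medians 0.37 and 0.39), the exceptions being Rab1b and Rab43. Rab18, which sits on the endoplasmic reticulum and lipid droplets, had 29.2, 31.5 and 13.8 RPKM in HP, 12.1, 27.8 and 28.6 RPKM in ULP and 12.4, 10.7 and 8.45 RPKM in UP libraries. ULP 4 lay within the UP range and HP 6 just above it. The log2 fold changes of Rab18 by edgeR were 1.12 ± 0.37 and 1.02 ± 0.37 (adjusted p = 0.068 and 0.169), and without ULP 4 and HP 6 it rose in both comparisons (1.42 and 1.34, adjusted p = 0.000205 and 0.000405). Rab33b and Rab6a of the Golgi apparatus also rose in both comparisons without these libraries, by 0.89 and 0.49 in HP and by 0.82 and 0.59 in ULP cells on the log2 scale (edgeR). The rare Rab6b rose in HP cells in that fit (0.57, edgeR adjusted p = 0.0498), at the edge of the threshold. Rab2a, at a mean of 27.8 RPKM, missed the threshold in both (0.55 and 0.48, edgeR adjusted p = 0.0702 and 0.12). Rab43, a further Golgi Rab, had 0.0901, 0.0198 and 0.149 RPKM in HP, 0.132, 0.0883 and 0.0973 RPKM in ULP and 0.195, 0.106 and 0.182 RPKM in UP libraries. It had the largest negative log2 fold change of the tested Rabs, −1.02 ± 0.54 in HP and −0.68 ± 0.53 in ULP against UP cells, but it rested on 3 to 28 counts per library and overlapped between the groups (edgeR adjusted p = 0.176 and 0.386). It fell in HP cells without ULP 4 and HP 6 (−1.67, edgeR adjusted p = 0.0255), and 10.98% of its 51-base windows occur in another gene.

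The 7 tested exocytic Rabs divided, with positive log2 fold changes for Rab8b and Rab10 and negative ones for Rab8a, Rab3a, Rab3d, Rab13 and Rab37 in both comparisons with UP cells (medians −0.40 and −0.30). Rab10, which returns TLR4 to the cell surface in macrophages, had 42.7, 43.3 and 27.6 RPKM in HP, 27.4, 45.5 and 48.1 RPKM in ULP and 26.6, 23.2 and 21.1 RPKM in UP libraries. Its edgeR log2 fold changes were 0.56 ± 0.23 and 0.68 ± 0.23 (adjusted p = 0.0992 and 0.169), and it rose in both comparisons without ULP 4 and HP 6 (0.75 and 0.90, adjusted p = 0.00142 and 0.000805). Rab3a and Rab3d, which dock secretory vesicles in regulated exocytosis, were much lower. Rab3a had 0.585, 0.721 and 1.05 RPKM in HP, 0.911, 0.759 and 0.761 RPKM in ULP and 1.00, 1.16 and 1.07 RPKM in UP libraries, with ULP below UP without overlap. All primed libraries lay below UP for Rab3a with library scaling by TMM. Rab3d had 1.87, 1.90 and 2.69 RPKM in HP, 3.04, 2.09 and 1.94 RPKM in ULP and 2.69, 2.37 and 3.34 RPKM in UP libraries, with overlap. Their log2 fold changes in HP against UP cells were −0.57 ± 0.24 and −0.50 ± 0.24 (edgeR adjusted p = 0.11 and 0.151), and both fell in both comparisons without ULP 4 and HP 6. Rab37, which carries tumour necrosis factor vesicles in macrophages, had 0.122, 0.130 and 0.132 RPKM in HP, 0.136, 0.113 and 0.171 RPKM in ULP and 0.223, 0.176 and 0.128 RPKM in UP libraries, from at most 31 counts in a library. The groups overlapped by RPKM, and the log2 fold changes were −0.57 ± 0.28 and −0.41 ± 0.27 (edgeR adjusted p = 0.147 and 0.318). With library scaling by TMM, all HP libraries lay below UP for Rab37.

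Of the 8 lysosomal Rabs, 4 were positive in HP against UP cells (median −0.04) and 5 in ULP against UP cells (median 0.15). Rab7, the regulator of fusion with lysosomes, had 101, 96.5 and 89.6 RPKM in HP, 88.3, 104 and 103 RPKM in ULP and 90.1, 80.8 and 83.3 RPKM in UP libraries. Its groups overlapped, and its log2 fold changes were 0.05 ± 0.10 and 0.13 ± 0.10 (edgeR adjusted p = 0.7 and 0.391). Rab9, which returns mannose 6-phosphate receptors from late endosomes to the Golgi apparatus, had 13.8, 14.9 and 6.58 RPKM in HP, 6.04, 11.7 and 12.8 RPKM in ULP and 4.99, 6.06 and 4.03 RPKM in UP libraries. As for Rab5a, HP 6 and ULP 4 were the primed libraries nearest UP, but for Rab9 ULP 4 lay within the UP range. The log2 fold changes of Rab9 by edgeR were 1.10 ± 0.35 and 0.92 ± 0.35 (adjusted p = 0.066 and 0.17), and it rose in both comparisons without ULP 4 and HP 6 (1.40 and 1.19, adjusted p = 0.000401 and 0.00139). Rab39, known from phagosomes, lay higher in all 6 primed libraries than in UP, with less spread among them for its level than Rab9. It had 0.374, 0.368 and 0.329 RPKM in HP, 0.270, 0.379 and 0.362 RPKM in ULP and 0.168, 0.144 and 0.133 RPKM in UP libraries, from 11 to 30 counts per library. The log2 fold changes of Rab39 by edgeR were 1.14 ± 0.24 and 1.09 ± 0.24 (adjusted p = 0.0606 and 0.169), and it rose in both comparisons without ULP 4 and HP 6. Rab32, which serves lysosome-related organelles and mitochondria, had 43.9, 41.7 and 50.1 RPKM in HP, 47.5, 44.1 and 43.8 RPKM in ULP and 48.0, 44.9 and 49.4 RPKM in UP libraries, with no separation by RPKM (−0.19 ± 0.12 and −0.15 ± 0.12). With library scaling by TMM, all HP libraries lay below UP for Rab32. Rab29, a Rab that recruits the kinase LRRK2, and the autophagy-linked Rab24 had no unadjusted p under 0.05 in edgeR with all libraries, and Rab12 rose in ULP cells without ULP 4 and HP 6 (0.34, adjusted p = 0.049), at the edge of the threshold.

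Of the 5 others, Rab19, a little-studied Golgi-associated Rab, had 2.02, 2.22 and 1.12 RPKM in HP, 0.850, 1.36 and 1.63 RPKM in ULP and 0.585, 1.09 and 0.571 RPKM in UP libraries (24 to 96 counts). Its edgeR log2 fold changes were 1.13 ± 0.37 and 0.67 ± 0.37 (adjusted p = 0.0678 and 0.247). Rab23, an antagonist of Hedgehog signalling, had values of 0.61 ± 0.21 and 0.39 ± 0.21 (edgeR adjusted p = 0.074 and 0.239), and both rose in both comparisons without ULP 4 and HP 6. Rab40c, part of a ubiquitin ligase, fell in both without these libraries (−0.39 and −0.48, edgeR adjusted p = 0.031 and 0.0188), and Rab28 had −0.01 ± 0.12 and −0.04 ± 0.12 with all libraries.

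Between HP and ULP cells, 3 genes had an unadjusted p under 0.05, and all 3 were chosen for description after their values were seen. Rab44, a large Rab with calcium-binding motifs known from mast cell degranulation, had 1.17, 1.53 and 1.13 RPKM in HP against 0.531, 0.621 and 0.704 RPKM in ULP libraries, with 0.608, 0.626 and 0.683 RPKM in UP libraries. The HP libraries were about level with each other, HP 6 included, and lay above both other groups. The log2 fold change of Rab44 by edgeR was 1.02 ± 0.18 in HP against ULP cells (adjusted p = 0.0796, called by DESeq2) and 0.88 ± 0.18 in HP against UP cells (adjusted p = 0.0606), and −0.14 ± 0.18 in ULP against UP cells. Rab15, which acts on early and recycling endosomes, had 3.34, 3.10 and 3.43 RPKM in HP against 2.13, 2.37 and 2.48 RPKM in ULP libraries, with 2.26, 1.89 and 2.12 RPKM in UP libraries. Its log2 fold changes were 0.47 ± 0.13 in HP against ULP cells and 0.53 ± 0.13 in HP against UP cells (edgeR adjusted p = 0.49 and 0.0606). Rab7b, which promotes degradation of TLR4 in lysosomes, had 5.86, 5.79 and 5.92 RPKM in HP against 7.14, 7.64 and 8.09 RPKM in ULP libraries, with 6.77, 6.70 and 5.58 RPKM in UP libraries. The value for Rab7b was −0.41 ± 0.12 in HP against ULP cells (edgeR adjusted p = 0.577). Of the 44 Rabs, 3 lay higher in all HP than in all ULP libraries (Rab15, Rab24 and Rab44) and 2 lay lower (Rab5b and Rab7b), beside 6.09% and 4.1% of all genes tested. Rab44 and Rab15 passed the threshold in HP against UP cells without ULP 4 and HP 6 (adjusted p = 0.00305 and 0.0146) and also with a correction for GC content in all libraries.

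Taking the 6 primed libraries against the 3 UP libraries, an exact two-sided permutation test of RPKM over all 84 splits, whose smallest possible p is 0.0119, gave a p under 0.05 for 11 of 44 Rabs, beside 30% of all genes tested. These were Rab1a, Rab5a, Rab6a, Rab8b, Rab10, Rab11b, Rab14, Rab15, Rab19, Rab23 and Rab39. The smallest p was reached by Rab39 and Rab11b. With TMM-scaled CPM in place of RPKM the count was also 11, beside 33% of all genes, with Rab3a, Rab5c, Rab8a, Rab13, Rab22a and Rab37 in place of Rab1a, Rab10, Rab14, Rab15, Rab19 and Rab23. RPKM is scaled to the total only, which sets all genes higher in HP than in UP cells by a median of 0.13 on the log2 scale of RPKM + 0.1. By RPKM, 13 Rabs lay higher in all HP than in all UP libraries and 3 lower (30.1% and 11.4% of all genes), and by TMM-scaled CPM 7 lay higher and 8 lower (21.9% and 20.9%). In ULP against UP libraries 9 lay higher and 4 lower by RPKM (16.2% and 11.5%), and 10 and 6 by CPM (14.8% and 13.5%).

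Summed over the 59 genes, the Rab level was 947 ± 27.3 RPKM in HP, 963 ± 41.6 RPKM in ULP and 901 ± 30.6 RPKM in UP cells (SD, n = 3 each). Endosomal Rabs took 33.2% ± 0.57 in HP, 33.4% ± 0.87 in ULP and 35.2% ± 0.51 in UP cells, and lysosomal Rabs took 22.4% ± 0.22, 21.9% ± 0.38 and 21.7% ± 1.12 (SD, n = 3 each). Exocytic Rabs took 9.33% ± 0.89 in HP, 9.66% ± 0.88 in ULP and 8.002% ± 0.39 in UP cells, and the Rabs of the endoplasmic reticulum and Golgi apparatus 33.2% ± 0.45, 33.4% ± 0.37 and 33.3% ± 1.86. The endosomal share lay lower in all 6 primed than in all 3 UP libraries (32.8% to 34.4% against 34.8% to 35.7%), and the exocytic share lay higher (8.36% to 10.35% against 7.55% to 8.24%), whereas the shares of the lysosomal Rabs and of the endoplasmic reticulum and Golgi Rabs overlapped. The summed endosomal level itself overlapped between the groups. It was 314 ± 5.41 RPKM in HP, 322 ± 5.74 RPKM in ULP and 317 ± 6.31 RPKM in UP cells (SD, n = 3 each). Of the 7 tested exocytic Rabs, only Rab10 (means of 37.9, 40.3 and 23.6 RPKM in HP, ULP and UP) and Rab8b (21.4, 22.7 and 13.0 RPKM) were higher in primed cells. The other 5 had negative log2 fold changes in both comparisons with UP cells.

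The direction of a Rab gene went with the GC content of its transcript. Across the 44 Rabs, the log2 fold change and GC content had a Pearson r of −0.53 (Spearman −0.59) in HP against UP cells and −0.64 (−0.69) in ULP against UP cells. All genes tested had −0.52 (−0.55) and −0.55 (−0.59). The points share libraries and are no independent replicates. Of the 13 Rabs under 45% GC, 11 were positive in HP against UP cells (84.6%, against 85.4% of all genes in this range), and of the 8 Rabs at 55% or more, 2 were positive (25%, against 23.8%). Of the 23 Rabs between these limits, 7 were positive (30.4%, against 45.6%), with a median of −0.157 against −0.052 for all genes there. In each of the 3 pairs above, the positive member had the lower GC content (43.4% and 53.6% for Rab5a and Rab5c, 44.8% and 58.7% for Rab1a and Rab1b, 40.7% and 49.6% for Rab8b and Rab8a). With an offset that removes the trend over GC content from each library, which set the median of all genes at −0.10, Rab5a came to 0.68 in HP against UP cells, against 1.45 without the offset. Rab19 came to 1.20, Rab44 to 1.09 and Rab15 to 0.73, against 1.13, 0.88 and 0.53. Rab18, Rab9, Rab21 and Rab39 came to between −0.24 and −0.02, Rab8b to −0.64, Rab11a, whose transcript holds 39.6% GC, to −1.48 and Rab28, with 35.4% GC the lowest of the tested Rabs, to −1.80. By edgeR with this offset, only Rab15 and Rab44 were called in HP against UP cells, where 1.06% of all genes were called. The medians of the roles with the offset were −0.18 (endosomal), −0.13 (endoplasmic reticulum and Golgi), −0.40 (exocytic) and −0.12 (lysosomal), so that the positive median of the endoplasmic reticulum and Golgi Rabs depended on it. The GC content is that of the longest coding transcript, which can differ from the counted gene model. This transcript has 10244 bases for Rab9 and 6704 for Rab18, against counted lengths of 1.749 and 2.257 kb. For Rab8b the lengths were close (4745 bases and 4.743 kb). The GC content given to genes such as Rab9 and Rab18 may thus include sequence that was not counted. The part of GC content in these differences was not tested beyond this offset.

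**Figure D4:**
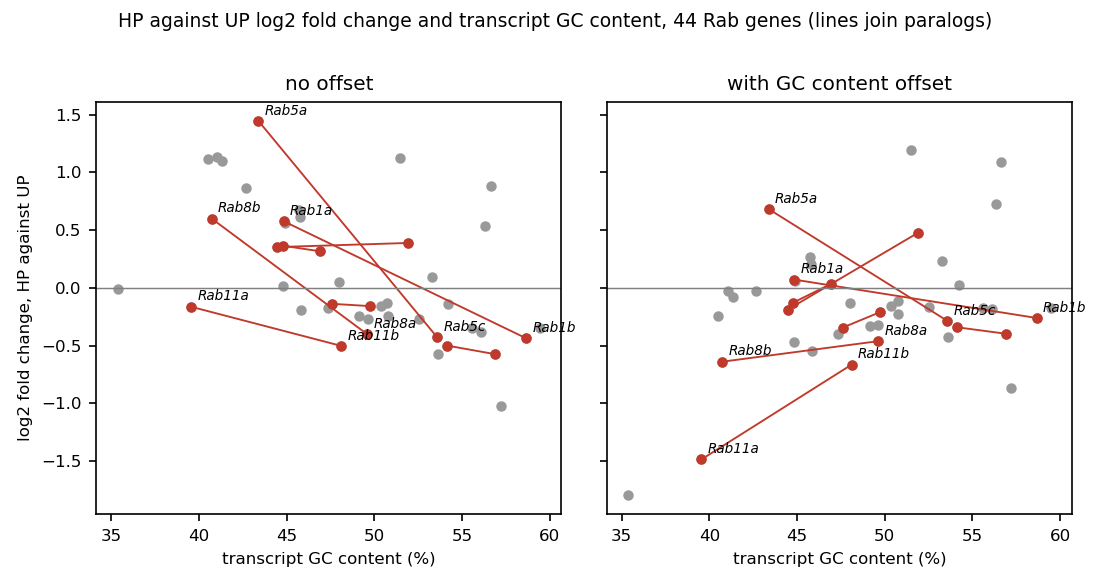
edgeR log2 fold change of the 44 tested Rab genes in HP against UP cells (y axis) over the GC content of the longest coding transcript in percent (x axis), without an offset (left) and with the GC content offset (right). Lines join paralogs. Without the offset the values fall with GC content (r = −0.53), with it Rab5a remains above Rab5c, while Rab8b falls below Rab8a and Rab11a lies at −1.48.

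The genes known to load, regulate or read Rab proteins were taken as a list. Of 132 listed genes, 119 were tested, and edgeR called 0 of them at an adjusted p under 0.05 in each comparison, where 0.524%, 0% and 0.17% of all genes were called. DESeq2 called 27, 15 and 0 in HP against UP, ULP against UP and HP against ULP cells, beside 24.8%, 7.13% and 0.728% of all genes. At an unadjusted p under 0.05, 29 were positive and 9 negative in HP against UP cells and 25 and 8 in ULP against UP cells, with 2 positive in HP against ULP cells, beside 24.3% and 16.6% of all genes in HP and 17.3% and 9.79% in ULP. Without ULP 4 and HP 6, 31 rose and 14 fell in HP cells, beside 28.1% and 20.4% of all genes, and 27 rose and 8 fell in ULP cells, beside 23.6% and 14.6%. The medians of the lists in HP against UP cells ran from −0.18 for 14 lysosomal effectors to 0.20 for 19 endosomal effectors, with 0.01 for 33 GTPase-activating proteins, −0.04 for 34 exchange factors, 0.02 for 11 secretory effectors and 0.01 for 8 genes of prenylation and GDP dissociation. With the gene length offset, under which the median of all genes was −0.21, every one of these medians was negative (−0.49 to −0.11), that of the endosomal effectors was −0.39, and 15 genes were positive and 47 negative at an unadjusted p under 0.05.

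The Rab escort proteins had the largest values. They present new Rab proteins to the geranylgeranyl transferase, which attaches the lipid anchor. Chm (escort protein 1) had 4.36, 5.09 and 0.467 RPKM in HP, 0.401, 3.79 and 4.69 RPKM in ULP and 0.261, 0.213 and 0.0424 RPKM in UP libraries. Chml (escort protein 2) had 2.21, 2.74 and 0.140 RPKM in HP, 0.0439, 1.66 and 2.15 RPKM in ULP and 0.0771, 0.0559 and 0.0361 RPKM in UP libraries, and its span overlaps that of Opn3, with the strand setting of the counting not given in the sources used here. HP 4, HP 5, ULP 5 and ULP 6 were thus many times higher than the other 5 libraries for both genes. The log2 fold changes by edgeR in HP against UP cells were 4.15 ± 1.11 for Chm and 4.78 ± 1.38 for Chml (adjusted p = 0.0606 and 0.0608), and without ULP 4 and HP 6 both rose (4.68 and 5.34, adjusted p = 7.21e-05 and 1.18e-05). Rabac1, which frees Rab proteins from their GDP dissociation inhibitor, had −0.66 ± 0.26 (edgeR adjusted p = 0.0938). With the GC content offset, the largest HP against UP value among the genes of prenylation and GDP dissociation was 3.35, against 4.78 without it. This offset set the median of all genes at −0.10.

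The GTPase-activating proteins Tbc1d8b, Evi5 and Tbc1d12 had values of 3.19 ± 0.78, 2.05 ± 0.52 and 2.02 ± 0.47 in HP against UP cells (edgeR adjusted p = 0.0606 each), and the exchange factors Dennd1b for Rab35, Dennd4a for Rab10 and Dennd6a for Rab14 had 1.10 ± 0.28, 0.90 ± 0.25 and 0.66 ± 0.17. All 6 rose in both comparisons without ULP 4 and HP 6. Among effectors, Rab11fip2 of recycling endosomes had 2.36 ± 0.61, Ehbp1 of Rab8 and Rab10 had 1.42 ± 0.33, Fyco1, which links Rab7 to kinesin, had 1.34 ± 0.35, and the Rab-binding phosphatase Ocrl had 1.01 ± 0.26, all with an edgeR adjusted p of 0.0606. Uso1, the tether of Rab1, had 0.78 ± 0.25, Bicd2, the motor adaptor of Rab6, had 0.58 ± 0.19 and the Rab kinase Lrrk2 had 0.83 ± 0.28 (edgeR adjusted p = 0.067, 0.0702 and 0.0694). The Rab-binding Mical1 had −0.29 ± 0.20 (edgeR adjusted p = 0.286). Rilpl2, an effector of phosphorylated Rab8 and Rab10, went the other way, with 48.4, 39.77 and 61.7 RPKM in HP, 66.9, 55.04 and 53.0 RPKM in ULP and 70.4, 80.02 and 73.3 RPKM in UP libraries. It had −0.70 ± 0.18 in HP against UP cells (edgeR adjusted p = 0.0606) and fell in both comparisons without ULP 4 and HP 6 (−0.87 and −0.55, adjusted p = 0.00117 and 0.013). With the GC content offset, the largest HP against UP value of the GTPase-activating proteins was 1.63, against 3.19 without it. That of the exchange factors was 0.87, against 1.34.

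**Figure D5:**
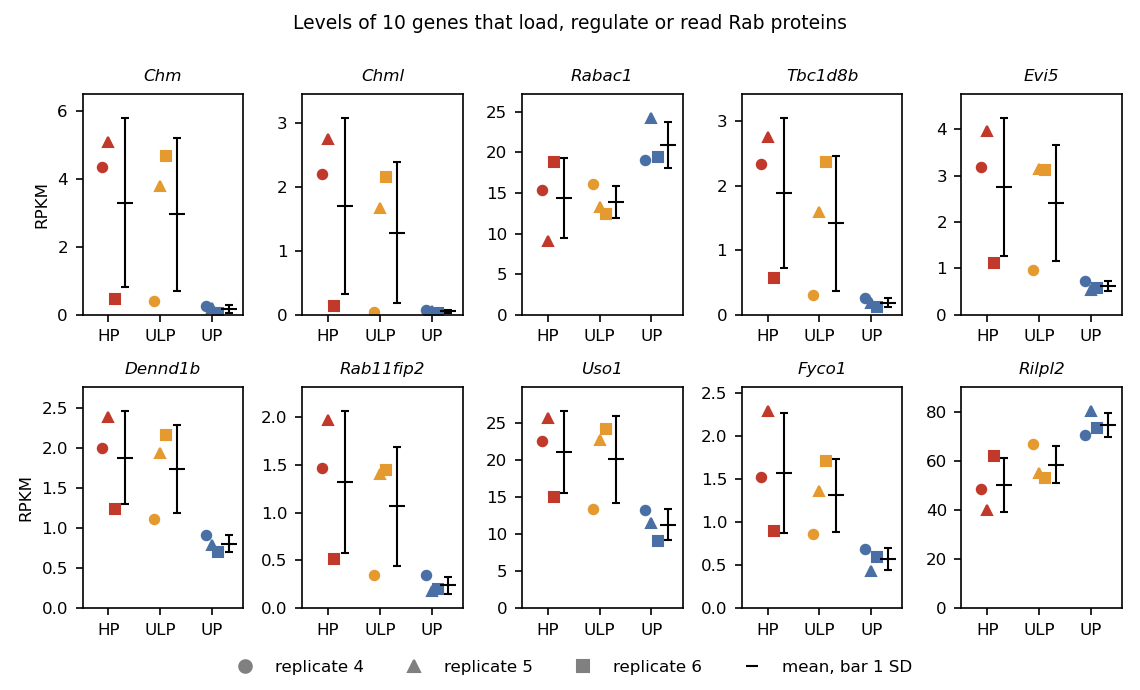
RPKM (y axis, from 0) of 10 genes that load, regulate or read Rab proteins in the HP, ULP and UP libraries, with a symbol for each replicate number and the mean with a bar of 1 SD (n = 3). Chm and Chml lie at 1.66 RPKM or more in HP 4, HP 5, ULP 5 and ULP 6 and at 0.467 RPKM or less in the other 5 libraries, and Rilpl2 lies below UP in all 6 primed libraries.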

How the data were processed

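The authors prepared stranded mRNA libraries and sequenced single-end reads of 51 bases, which they aligned with TopHat2 2.1.0 and counted per gene with featureCounts 1.5.0 after demultiplexing with bcl2fastq 1.8.4. No source used here gives the strand setting of the counting or the harvest time of these BV-2 libraries. The sources name more than 1 mouse build, with GRCm38 in the submitters' processing notes. The deposited workbook held raw counts, reads per mio counts (RPM) and RPKM, and the RPM and RPKM values were made by the authors from the counts in R.

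Counts were fitted for all genes that passed filterByExpr with edgeR 4.0.16 (R 4.3.3): TMM scaling, 1 coefficient per group over all 9 libraries, glmQLFit, glmQLFTest and Benjamini-Hochberg adjustment over 14702 genes, called at an adjusted p under 0.05. Alternatives were DESeq2 1.42.0, limma 3.58.1 on log2(RPKM + 0.1), no filter, GC content and gene length offsets by loess (span 0.3), a replicate block and omission of libraries. The GC content offset used the longest coding transcript, known for 99.1% of genes. The gene length offset used the authors' gene length, taken from their RPM and RPKM values. The code was tested on simulated counts. Primed libraries were compared with UP libraries by exact permutation.

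Rab genes were taken by symbol and grouped by known role, and regulators were taken from a list. The members and the lists were chosen with earlier results of these data known. Rab genes described library by library are the 8 with the highest mean RPKM, the 5 highest and 5 lowest by log2 fold change against UP cells in HP and in ULP, and Rab5a, Rab7, Rab11a, Rab27a, Rab32, Rab1a and Rab8a. Rab7b, Rab8b, Rab15 and Rab44 were added after their values were seen, and regulators are up to 3 per list with the smallest p in HP against UP cells. Depth was 24.2 to 27.8 mio counts per library, and count limits cover counting error only. No protein sequence was used here.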

Additional observations from a re-analysis of the deposited data

How the results depend on the processing

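The number of Rab genes called by edgeR depended on the settings. In HP against UP cells it was 0 with all libraries, 12 by DESeq2, 3 without a filter on low counts (50 Rabs tested), 3 with only the libraries compared, 2 with the GC content offset and 24 without ULP 4 and HP 6, and it ranged from 0 to 19 when 1 library was left out. In ULP against UP cells it was 2 by DESeq2 and 20 without ULP 4 and HP 6, ranged from 0 to 9 when 1 library was left out and was 0 otherwise. In HP against ULP cells it was 1 by DESeq2 and 0 otherwise. The exact permutation count ranged from 5 (without UP 6) to 15 (without ULP 4 or without UP 4) by RPKM and from 4 (without ULP 5) to 16 (without ULP 4) by CPM. These counts rest on unlike tests, with 56 splits (smallest p 0.0179) without a primed library and 28 splits (0.0357) without a UP library. The share of all genes was not computed for them, so they are not read as a result about the Rabs. Without ULP 4 and HP 6 together the fit rests on 7 libraries, and with 1 library left out on 8.

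With the replicate number as a block, 0 Rab genes were called in each comparison. Libraries of the same number did not deviate together (correlations from −0.84 to 0.68), so the numbers were not taken as pairs. With the GC content offset, without and with the replicate block, the HP against UP log2 fold change turned for Rab18 (−0.238 and −0.237), Rab21 (−0.0222 and −0.0258), Rab35 (0.027 and 0.027), Rab39 (−0.0221 and −0.0176), Rab7 (−0.129 and −0.129), Rab8b (−0.638 and −0.641), Rab9 (−0.0807 and −0.0799), Rab14 (−0.47 and −0.471), Rab2a (−0.126 and −0.108) and Rab6a (−0.187 and −0.179). In ULP against UP cells it turned for Rab18 (−0.144 and −0.141), Rab44 (0.0589 and 0.0551), Rab7 (−0.0154 and −0.0145), Rab8b (−0.313 and −0.323), Rab9 (−0.0762 and −0.075), Rab14 (−0.31 and −0.31), Rab20 (0.131 and 0.153) and Rab2a (−0.118 and −0.0976). The gene length offset, which set the median of all genes at −0.21 in HP and −0.19 in ULP against UP cells, turned Rab7 (−0.057, with the block −0.0565), Rab12 (−0.0502) and Rab14 (−0.715) in HP and Rab15 (−0.172, with the block −0.171), Rab7b (−0.0636, with the block −0.0647), Rab14 (−0.534), Rab23 (−0.07), Rab5b (−0.0528) and Rab6b (−0.0866) in ULP against UP cells. Over all 21 alternatives, 29 of 44 Rabs kept their sign in HP against UP, 29 in ULP against UP and 14 in HP against ULP cells. Rab43, Rab39 and Rab37 rest on at most 31 counts per library, which limits their precision.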
